A study of Rattus norvegicus with 14 samples.

Results

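The comparison described here set rats tested on highly familiar objects against rats that were neither trained nor tested, gene by gene, in the caudal perirhinal cortex. Its members are all 17521 genes that the authors' table for these groups lists, out of 17905 genes listed in any of the study's 3 tables. The rats were male Lister Hooded rats under food restriction on a reversed light cycle. In group Familiar (5 rats) every training session in the bow-tie maze used one unchanging set of objects. In this maze a rat shuttles between the ends of a double triangle and finds objects at each. The test session then showed that set once more. The 4 rats of group Control were likewise food restricted and were handled, but saw no maze and no objects. Thus 9 of the study's 14 rats enter, and a difference between the groups covers maze, objects, running and reward together. Familiar rats shared cages with rats of the new-object group, which is not compared here, and the sequenced rats were chosen in part by their behaviour and the quality of their RNA. Brains were taken 1 h after the session, ribosomal RNA was removed from the total RNA, and libraries were read on the Ion Proton sequencer.

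The perirhinal cortex, on the ventral side of the temporal lobe, is needed to judge whether an object has been met before. Neurons that fire strongly switch on immediate early genes within minutes, among them transcription factors such as Fos and Egr1 and the synaptic protein Arc, and their RNA decays again over the following hours. Cortical tissue also holds glia, vessels and the edge of the meninges, so bulk RNA mixes neuronal changes with those of other cells. A lower value in such tissue cannot tell fewer cells of a type apart from less RNA per cell.

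For each gene the table gives a linear fold change of Familiar over Control and an unadjusted p, from edgeR as the authors ran it. One pair of columns holds upper quartile normalization by itself. The others follow RUVSeq, which estimates k hidden factors of unwanted variation and takes them out, with k = 1, 2, 3 and 4. Whether these factors were free of the group difference cannot be seen from the table. Values are given at k = 4 unless another setting is named. By the paper's account, samples of the compared groups separated best at this setting, and edgeR was run on counts adjusted beforehand. The setting was thus judged by the same group difference that its p values test. Whether p values and DEG counts at this setting hold their nominal error rate was not tested. A differentially expressed gene (DEG) had an unadjusted p under 0.01 and was at least 25% higher in Familiar or had a fold change of at most 0.8, and adjusted p values are Benjamini-Hochberg values over all 17521 genes. With 0 columns of values per rat in the table, neither the depth of each library, nor expression level, nor the spread between rats can be shown. The only error that can be given is the standard error (SE) that a fold change and its p imply under a normal approximation, written here as the implied SE on the log2 scale. It rests on the 5 and 4 rats and on what RUVSeq left of their spread.

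At k = 4 there were 321 DEGs higher in Familiar, 1.83% of the genes, and 331 lower, 1.89%. At an adjusted p under 0.05 by Benjamini-Hochberg, 155 genes were higher (0.885%) and 191 lower (1.09%). The median DEG rose by 0.56 or fell by 0.61 on the log2 scale, with a median implied SE of 0.17. Before RUVSeq the same rule gave 95 higher (0.542%) and 79 lower (0.451%), and 2 and 9 of all genes had an adjusted p under 0.05. By the authors' edgeR test 0.993% of genes had an unadjusted p under 0.01 before RUVSeq and 4.22% one under 0.05. Those shares are near what the thresholds give without any difference. At k = 4 they were 5.11% and 11.9%. Between upper quartile normalization and k = 1 the SD of the log2 fold changes over genes fell from 0.48 to 0.33 and then stayed there, while the median implied SE fell at each step, from 0.27 to 0.19. All 652 DEGs had the same direction before RUVSeq, and 151 of them were DEGs at all 5 settings.

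**Figure D1:**
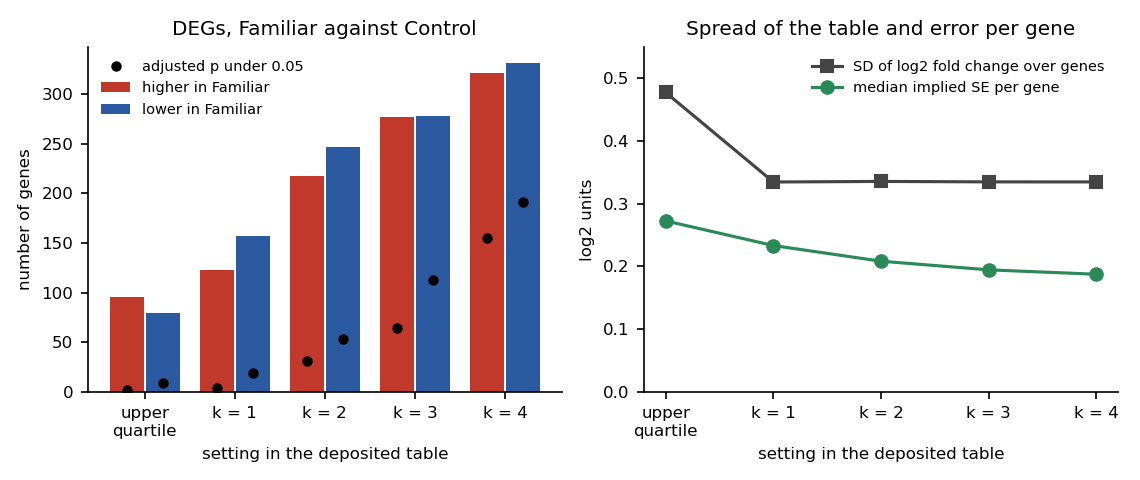
Left, number of DEGs higher and lower in Familiar (bars) and of genes with an adjusted p under 0.05 (black points) at each of the 5 settings of the authors' table. Right, SD of the log2 fold change over all genes and median implied SE per gene, both in log2 units. DEGs rise from 95 and 79 at upper quartile normalization to 321 and 331 at k = 4 while the median implied SE falls from 0.27 to 0.19.

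Most activity-regulated transcription factors had higher values in Familiar, though 24 of the 33 were not DEGs. Of the 33 in the table, 9 were DEGs, all higher, which is 27.3% against 1.83% of all genes, and 30 of 33 had a log2 fold change above 0. Their median was 0.34 against 0.00 over all genes. Junb, which pairs with Fos proteins in AP-1, stood at 0.63 (implied SE 0.08), the smallest p among the higher DEGs of the table. Egr2, a zinc finger factor used in plasticity and in myelinating Schwann cells, rose by 0.88 (implied SE 0.18, adjusted p = 0.000444). Its relative Egr1 rose by 0.45 (implied SE 0.11, adjusted p = 0.00507). Fosb rose by 0.65, the orphan nuclear receptor Nr4a3 by 0.43 and its relative Nr4a1 by 0.55, with adjusted p between 0.0134 for Fosb and 0.0298 for Nr4a1. Fos was a DEG at 0.77 with a wide implied SE of 0.25, and its adjusted p was 0.0728. The list also held DEGs named after their values were seen, Ier5 at 0.36 and Egr4 at 0.39. Jun, likewise named, at 0.28, had an adjusted p of 0.033 but a change too small for a DEG.

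Other members of the list or its neighbours were not called. Nr4a2, the third Nr4a receptor, had a log2 fold change of 0.01 (implied SE 0.10, unadjusted p = 0.888), and Creb1, whose protein switches many of these genes on, had 0.29 (implied SE 0.27, unadjusted p = 0.279). Npas4, a factor specific to neuronal activity, and Egr3 gave 0.19 and 0.16 with unadjusted p of 0.324 and 0.0809, named after their values were seen.

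Other activity-regulated genes encode products that act at synapses and in signalling. Of 38 activity-regulated effectors, 6 were DEGs, all higher (15.8%), and the median was 0.16. Arc, which trims AMPA receptors from synapses, rose by 0.75 (implied SE 0.14, adjusted p = 1.37e-05) and was a DEG at every setting. Dusp1, a phosphatase that ends MAP kinase signalling, rose by 0.53, and Spry4, a brake on growth factor receptors, by 0.67. Vgf, the precursor of secreted neuropeptides, rose by 0.41, Ptgs2 (cyclooxygenase 2) by 0.33 and Arl4d, a small GTPase, by 0.40. Homer1, a scaffold of metabotropic glutamate receptors that was named after its values were seen, had 0.30 with an adjusted p of 0.0184, just under the size of a DEG. Bdnf gave 0.13 (implied SE 0.16, unadjusted p = 0.419).

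Fewer of these genes were DEGs before RUVSeq, as over all genes, where higher DEGs made up 0.542% there and 1.83% at k = 4. Of the 9 transcription factors only 3 (Junb, Egr2 and Egr1) and of the 6 effectors only 2 (Arc and Spry4) were DEGs at upper quartile normalization, while the list medians there were 0.31 and 0.15. Dusp1 shows the step, with 0.45 (unadjusted p = 0.112) before and 0.53 (unadjusted p = 2.43e-05) after RUVSeq.

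The promoters of these DEGs show 2 of the classic elements of activity-regulated genes, and short stretches are printed because their cores are shared between members that rose. The sequences are RefSeq's, on the rat assembly GRCr8, a later one than the authors mapped to, and cover 250 bases before to 50 after each gene's start. Both strands were searched in the 10958 promoters that matched genes of the table. A CArG box, where serum response factor binds, occurred in 1.28% of them in 5 of the list's 23 promoters and in 2 of the 7 transcription factor DEGs with a promoter, Egr1 and Egr2. The other 3, Klf6, Srf and Zfp36, were not DEGs. Capitals mark the boxes, 2 in Egr1 and 1 in Egr2. The box of Egr2 and the second box of Egr1 have the same letters and the same place, 83 to 74 bases before the start. The stretches lie at chr18:26736963-26737012 on the plus strand for Egr1 and chr20:21054497-21054546 on the minus strand for Egr2.
Egr1: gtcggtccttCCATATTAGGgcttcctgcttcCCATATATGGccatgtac
Egr2: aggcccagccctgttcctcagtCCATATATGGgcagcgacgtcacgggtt

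The full cyclic AMP response element TGACGTCA, the site of CREB, occurred in 3% of the promoters in 5 of the 29 effector promoters (17.2%) and in 3 of the 5 effector DEGs with a promoter, Dusp1, Vgf and Arl4d. The other carriers in these lists, the effectors Plk2 and Scg2 and the transcription factors Btg2, Jund and Maff, were not DEGs. In Dusp1 and Vgf an E-box CACGTG, present in 9% of all promoters and in 5 of the 29 effector promoters, among them those of Gadd45b and Gadd45g, which were not DEGs, stood closer to the start, and capitals mark both elements. None of the 7 transcription factor DEGs held the full element, while 5 of the 7 held its core TGACG, against 14 of the list's 23 promoters (60.9%) and 30.4% of all promoters. The core also occurred in 57.1% of the chaperone promoters of the endoplasmic reticulum and 55% of those of cytosolic heat shock genes. A match is a run of letters and not a bound site. The stretches are chr10:17184718-17184767 (plus) for Dusp1, chr12:25277066-25277125 (minus) for Vgf and chr10:87100858-87100907 (plus) for Arl4d.
Dusp1: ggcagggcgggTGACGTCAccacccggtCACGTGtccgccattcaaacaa
Vgf: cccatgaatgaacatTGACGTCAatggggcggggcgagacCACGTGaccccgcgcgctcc
Arl4d: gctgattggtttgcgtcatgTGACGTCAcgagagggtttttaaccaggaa

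Chaperones of the endoplasmic reticulum had 2 higher DEGs of 25 (8%) and cytosolic heat shock genes 2 of 27 (7.41%), against 1.83% of all genes. Hspa5 (BiP), the main Hsp70 of the endoplasmic reticulum, rose by 0.45 with the small implied SE of 0.07, and its value before RUVSeq was 0.46. Sdf2l1, which works with BiP, rose by 0.84 (implied SE 0.32, adjusted p = 0.182). The other 23 of the 25 chaperones and folding enzymes of the endoplasmic reticulum were not DEGs, and the list's median was 0.03. Among 26 sensors and targets of the unfolded protein response, which answers misfolded protein in that compartment, Sesn2 was higher by 0.39 and Ern1, the sensor IRE1, was lower by 0.41 on the log2 scale. Both had adjusted p values near 0.2 (0.167 for Sesn2 and 0.19 for Ern1). Each is 3.85% of that list, against 1.83% of all genes higher and 1.89% lower. In the cytosol the inducible Hsp70 genes Hspa1a and Hspa1b rose by 1.59 (implied SE 0.29) and 1.32 (implied SE 0.25). They were the only 2 of 27 heat shock genes to become DEGs, and before RUVSeq the only higher genes of the whole table with an adjusted p under 0.05 (0.0313 and 0.0381). Hspa1a and Hspa1b are nearly identical in sequence and only uniquely mapped reads were counted, so their values are uncertain. Hspb1, named after its values were seen, gave 0.73 (unadjusted p = 0.0194). No mitochondrial chaperone was a DEG, and Hspd1 had -0.16 (unadjusted p = 0.0892).

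The element that drives BiP under stress of the endoplasmic reticulum, CCAAT and CCACG set 9 bases apart, occurred in 16 of the 10958 promoters (0.146%). Chaperones and folding enzymes of that compartment held 7 of those 16, in Calr, Canx, Creld2, Dnajc3, Ero1b, Hsp90b1 and Hspa5. Only Hspa5 of the 7 was a DEG. Named after their values were seen, Dnajc3, a co-chaperone of BiP, had 0.28 (implied SE 0.14, unadjusted p = 0.0414), and Hsp90b1, the Hsp90 of the compartment, 0.10 (implied SE 0.06, unadjusted p = 0.0686). Hsp90b1 held a further match on the opposite strand, at -72 to -54 from the start, which is not printed. With both blocks in capitals, stretches of Hspa5, Dnajc3 and Hsp90b1 set the DEG beside genes that carry the same element and were not called. They lie at chr3:38452946-38453005 (plus) for Hspa5, chr15:102432514-102432572 (plus) for Dnajc3 and chr7:23012431-23012489 (minus) for Hsp90b1.
Hspa5: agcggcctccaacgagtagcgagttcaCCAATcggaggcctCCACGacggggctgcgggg
Dnajc3: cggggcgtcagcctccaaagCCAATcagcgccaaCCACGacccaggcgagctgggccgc
Hsp90b1: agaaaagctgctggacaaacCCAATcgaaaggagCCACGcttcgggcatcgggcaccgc

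Several clock genes differed. The daily clock is a loop in which CLOCK or NPAS2 with BMAL1 (Arntl) switches on Per, Cry and Nr1d genes, whose products then hold it back. Per2 was higher by 0.47 (implied SE 0.08, adjusted p = 2.95e-06) and Cry1 by 0.42 (implied SE 0.16, adjusted p = 0.188). Nr1d1 (REV-ERB alpha), which represses Arntl, fell by 0.52 (implied SE 0.09, adjusted p = 9.08e-07), and was a DEG at all 5 settings, as Per2 was. These were the 3 DEGs of 22 clock genes, 2 higher (9.09% against 1.83% of all genes) and 1 lower (4.55% against 1.89%). Tef and Npas2, named after their values were seen, had adjusted p of 0.000323 and 0.0151 at changes too small for a DEG, Tef at 0.25 and Npas2 at -0.30. Clock (-0.05), Arntl (-0.10) and Dbp (0.07), likewise named, had unadjusted p of 0.548, 0.482 and 0.412. The hour of day at which the brains of each group were taken is not given in the sources used here, so hour and group cannot be told apart.

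Most oligodendrocyte and myelin markers had lower values in Familiar, though 16 of the 23 were not DEGs. Of 23 oligodendrocyte and myelin markers, 6 were lower DEGs (26.1% against 1.89% of all genes), 1 was higher and 20 had a log2 fold change below 0. The median was -0.26, and it was -0.25 before RUVSeq. Mbp, which encodes myelin basic protein, fell by 0.50 (implied SE 0.09). Cnp, a myelin enzyme, fell by 0.37 and Tf, the iron carrier made by oligodendrocytes, by 0.41, with adjusted p of 0.000428 and 0.000611. Mal, a protein that sorts myelin lipids and proteins, fell by 0.51 (adjusted p = 0.0188). Ugt8, the enzyme that makes the myelin lipid galactosylceramide, was named after its values were seen and fell by 0.50 (adjusted p = 0.19). Mbp, Cnp and Tf were DEGs at every setting, and their values moved by less than their implied SE between settings. The exception was Aspa, the enzyme that breaks down N-acetylaspartate in oligodendrocytes, which rose by 1.19 (implied SE 0.31, adjusted p = 0.0143).

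The factors that set oligodendrocyte identity were not DEGs. Named after their values were seen, Olig1 had -0.21 (unadjusted p = 0.0352), Sox10 -0.19 (unadjusted p = 0.223) and Olig2 -0.17 (unadjusted p = 0.33). Likewise named, Mog, a protein of the outer myelin surface, had -0.26 (unadjusted p = 0.238), and Mag, of the inner one, 0.00. The implied SE of Mag, 1.02, is a ratio of values near 0 and a poor measure of error. None of the 10 precursor markers was a DEG, and their median was 0.04. Pdgfra, the receptor that defines these precursors, had 0.14 (unadjusted p = 0.104).

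**Figure D2:**
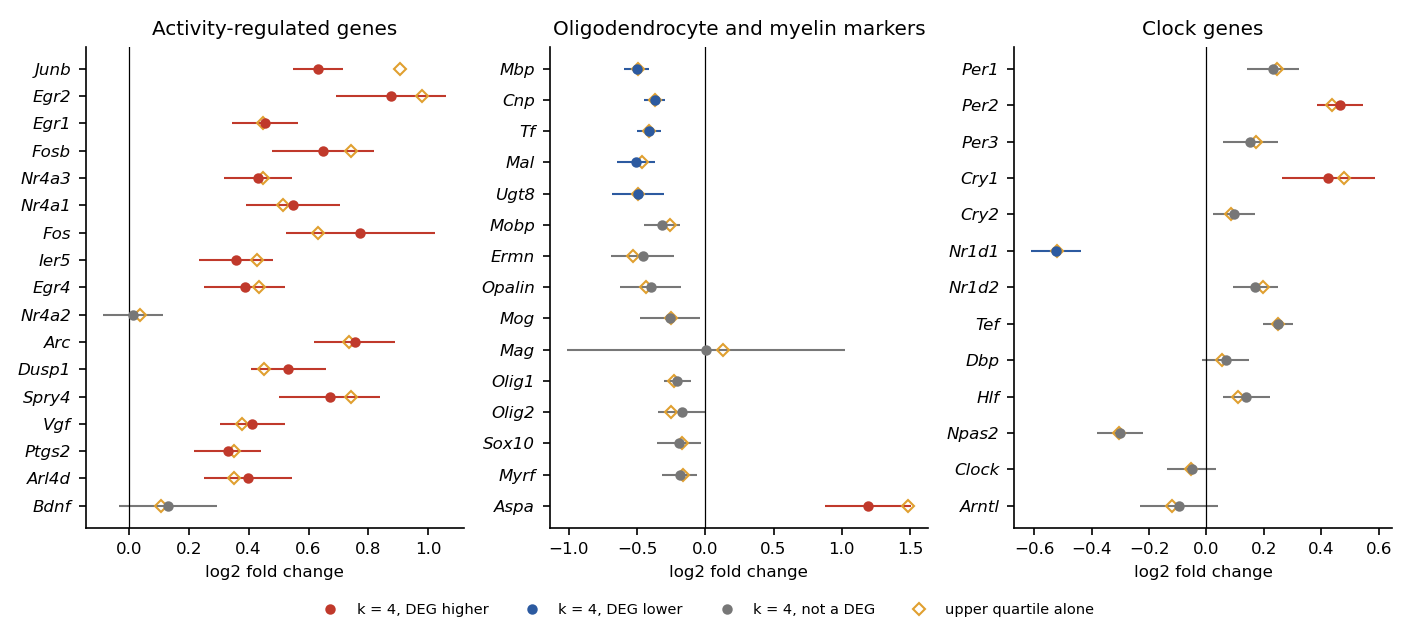
Log2 fold change of Familiar over Control at k = 4 (points) with the implied SE (bars) for activity-regulated genes, oligodendrocyte and myelin markers, and clock genes. Red and blue are DEGs and grey is not a DEG, and open diamonds are the values at upper quartile normalization alone. Mbp, Cnp, Tf, Mal and Ugt8 lie between -0.37 and -0.51, and for most genes the value before RUVSeq lies within the bar, while Junb falls from 0.91 to 0.63.

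Markers of other cell types were read in the same way. Among 22 astrocyte markers 18 were above 0 and the median was 0.11. Rlbp1, a retinal binding protein of glia, was the only DEG (4.55% against 1.83% of all genes higher), at 0.65 (implied SE 0.10) after 0.98 before RUVSeq. Gja1, the gap junction protein connexin 43, had 0.23 and an adjusted p of 0.00937 without the size of a DEG, while Aqp4, the water channel, had -0.04 and Gfap, the astrocyte filament, 0.13 (all 3 named after their values were seen). Cd74, the invariant chain of class II antigen presentation, rose by 0.90 (implied SE 0.30, adjusted p = 0.0905) and was the only microglial DEG of 20 (5%). P2ry12, a receptor of resting microglia that was named after its values were seen, had -0.43 (unadjusted p = 0.0231). None of 18 endothelial and mural markers and none of 24 inhibitory neuron markers was a DEG, with medians of 0.04 and -0.03.

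Excitatory neuron markers had a median of -0.03 and 2 lower DEGs among 21 (9.52% against 1.89% of all genes). Syt6, a synaptotagmin typical of layer 6 neurons, fell by 1.00 (implied SE 0.22, adjusted p = 0.00149), to a fold change of 0.50, and was a DEG at all 5 settings. Neurod6, a transcription factor of cortical projection neurons, fell by 0.51 (implied SE 0.13, adjusted p = 0.00724). Tle4 and Foxp2, also typical of layer 6 and named after their values were seen, had -0.27 (adjusted p = 0.0547) and -0.43 (adjusted p = 0.261). Likewise named, Tbr1, a deep layer factor, had -0.10 and Cux2, an upper layer factor, 0.14, with unadjusted p of 0.259 and 0.0362. Of the general markers, also named after their values were seen, Slc17a7 (the vesicular glutamate transporter) had -0.03 and Camk2a -0.01, at implied SE of 0.05 and 0.06.

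Collagens, other matrix genes and markers of meningeal fibroblasts, the cells of the brain's covering membranes, held more higher than lower DEGs. Of 45 collagens 8 were higher DEGs (17.8% against 1.83% of all genes), 1 was lower (2.22% against 1.89%) and 33 were above 0. The fibrillar Col3a1 rose by 0.61, Col1a1 by 0.43 and Col6a3 of the beaded filaments by 0.68, with adjusted p of 0.00118, 0.0146 and 0.00437. Col4a6, a basement membrane chain, rose by 1.24 (implied SE 0.39, adjusted p = 0.0639), Col5a1 by 0.38 and Col1a2 by 0.44. Col23a1, a membrane collagen, was the one lower DEG, at -1.19 for 1 of its 2 identifiers, and was named after its values were seen. Serpinh1 (Hsp47), the chaperone of the endoplasmic reticulum that folds collagen, rose by 0.60 (implied SE 0.10, adjusted p = 1.56e-06) and was a DEG at all 5 settings.

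Among 44 other matrix proteins and their enzymes 6 were DEGs, all higher (13.6% against 1.83%), with a median of 0.19. They were Fn1 (fibronectin, 0.40), Thbs2 (0.65), Fbln1 (0.33), Hspg2 (perlecan, 0.53), the protease Adamts4 (0.53) and Hapln1 (0.36), a link protein of the nets around neurons. Only Fn1 had an adjusted p under 0.05 (0.00152). Itgb4, an integrin that anchors cells to laminin, rose by 0.82 (adjusted p = 0.00111), the single DEG among 28 laminins and integrins. Before RUVSeq 1 of the 6 matrix genes and none of the 8 higher collagens was a DEG, although the medians were already 0.22 and 0.26.

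Of 22 meningeal fibroblast markers 5 were DEGs, all higher (22.7% against 1.83%), 17 were above 0 and the median was 0.38. Before RUVSeq and at k = 1 the list held 0 DEGs by the authors' edgeR test, with medians of 0.40 and 0.37, and it held 1 at k = 2 and 3 at k = 3. The growth factor Igf2 rose by 0.52 and its binding protein Igfbp2 by 0.48, with adjusted p of 4.11e-05 and 0.00293. Ptgds, which makes prostaglandin D2, rose by 0.38, the organic anion transporter Slc22a6 by 0.87 and the transcription factor Foxc1 by 0.48. Over the whole list the values ran from -0.15 to 0.87. The part of meningeal tissue in the matrix result was not tested.

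**Figure D3:**
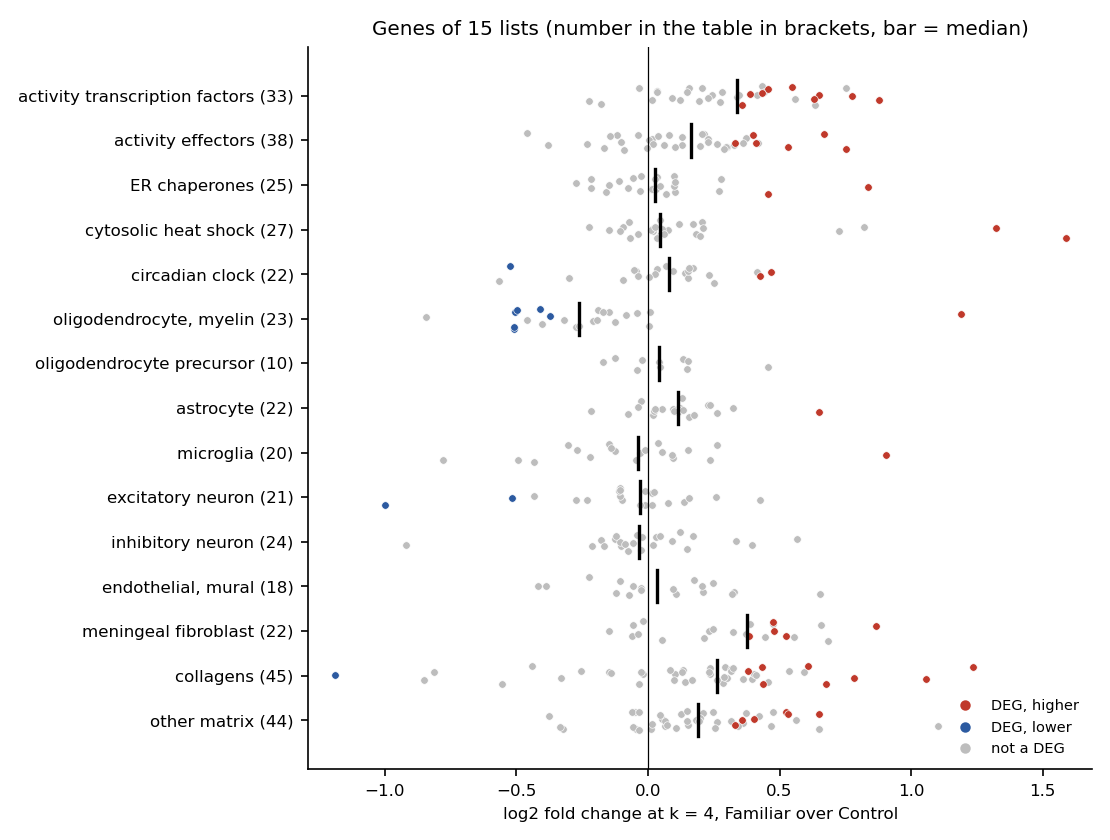
Log2 fold change at k = 4 of every gene of 15 lists, 1 point a gene, with the number of genes in brackets and the median as a black bar. Red points are DEGs higher and blue points DEGs lower in Familiar. The medians of activity transcription factors (0.34), meningeal fibroblast markers (0.38) and collagens (0.26) lie above 0, that of oligodendrocyte and myelin markers below it (-0.26).

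Of the receptors for neurotrophic factors, Gfra3, the artemin receptor of sensory neurons, rose by 1.73 (implied SE 0.37, adjusted p = 0.000603), after 3.17 before RUVSeq. Gfra2, the neurturin receptor, had -0.27 (unadjusted p = 0.029), and the list of 15 ligands and receptors had a median of -0.01. Of 22 sensory ganglion genes 13 were in the table, and their median was 0.30, with Gfra3 as the DEG of smallest p. Among markers of Schwann cells, the glia of peripheral nerve, 2 of 11 were higher DEGs and 2 lower (18.2% each, against 1.83% and 1.89% of all genes), with a median of -0.01. Egr2 and Pmp22 (0.79) were the higher ones, and Mal, shared with the myelin list, was among the lower. The part of peripheral nerve in these values was not tested.

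Many of the lower DEGs were small nucleolar RNAs (snoRNAs), which guide the chemical modification of ribosomal and spliceosomal RNA. Names of small non-coding RNAs made up 37.8% of the lower DEGs and 7.17% of the higher ones, against 3.94% of all genes. The study purified RNA with TRIzol and a clean-up kit, and recovery of small RNAs in each rat cannot be read from the table. Its part in these values was not tested. Among 225 C/D box snoRNAs, which guide methylation, 59 were lower DEGs (26.2%) and 3 higher, with a median of -0.35. Among 126 H/ACA box snoRNAs, which guide pseudouridylation, 30 were lower (23.8%) and 0 higher by the authors' edgeR test, with a median of -0.33. The relatives that modify spliceosomal RNAs in Cajal bodies had 2 lower DEGs of 17, SCARNA14 (-1.19) and SCARNA11 (-1.15), and 2 above 0. SNORD100 fell by 1.11, SNORA64 by 1.05, SNORA62 by 1.01 and SNORD48 by 0.80, with implied SE between 0.09 and 0.13. SNORD67 (-0.75) and SNORA46 (-0.75) were DEGs at all 5 settings. The list of 25 proteins of snoRNA particles and ribosome assembly had a median of 0.00 and 1 lower DEG (4% against 1.89% of all genes), Rrn3, an initiation factor of RNA polymerase I, at -0.39 (adjusted p = 0.0485).

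Within the imprinted clusters, many copies lie in tandem, and counts by name, chosen after their values were seen, are given without a test between names. Over all genes, 1.89% were lower DEGs and 1.83% higher. Of 34 identifiers named SNORD115, 12 were lower DEGs, 0 higher and 30 below 0, with a median of -0.60. The 29 named SNORD116 had 7 lower DEGs, 12 above 0 and a median of -0.16. The 40 named SNORD113 had 7 lower and 3 higher DEGs, 26 above 0 and a median of 0.08. One SNORD113 identifier had nonetheless the smallest p of the table, at -1.13 (implied SE 0.08, adjusted p = 2.31e-37). Protein genes of the same imprinted regions, also named after their values were seen, were not DEGs. Snurf had 0.11, Snrpn 0.32, Ndn 0.03 and Ube3a -0.02, with unadjusted p of 0.544 or more, and Rtl1 and Dlk1 had 0.15 and -0.20. Copies of 1 name are nearly identical and only reads that mapped to 1 place were counted, so values of single copies are uncertain.

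Other abundant small RNAs went in different directions. Their counts stand beside 1.83% of all genes that were higher DEGs and 1.89% that were lower. Of 74 identifiers named 7SK, an RNA that holds the elongation factor P-TEFb inactive, 13 were DEGs, all higher, and 67 were above 0, with a median of 0.34. Of 25 named U2, the spliceosomal RNA that pairs with the branch point, 11 were DEGs, all lower, and 21 were below 0, with a median of -0.38. U1, which pairs with the 5′ splice site, gave 6 lower DEGs of 38 and a median of -0.23. The 29 identifiers of the signal recognition particle RNA held 3 higher and 8 lower DEGs. Most identifiers of such names are copies scattered over the genome, and their values cannot be read as those of the functional gene. Before RUVSeq the medians of 7SK and U2 were 0.60 and -0.23, but few identifiers were called, with 3 DEGs for 7SK, 1 for U2 and 0 for U1 and for the signal recognition particle RNA by the authors' edgeR test. The whole list of 230 spliceosomal, 7SK, Y and signal recognition particle RNAs went from 5 DEGs before RUVSeq to 49 at k = 4, and the 8 lower DEGs of the signal recognition particle RNA appeared at k = 4 alone. At k = 4 and an adjusted p under 0.05 the list held 23 genes, with 6 higher for 7SK, 7 lower for U2, 3 lower for U1, and 1 higher and 3 lower for the signal recognition particle RNA.

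**Figure D4:**
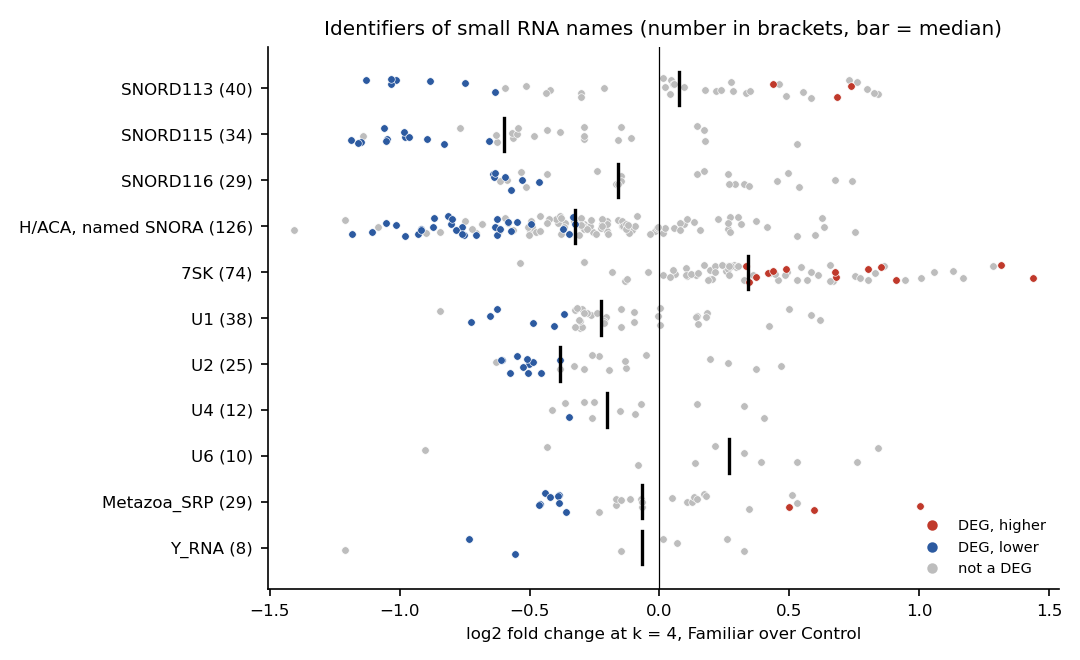
Log2 fold change at k = 4 of each identifier under 11 groups of small RNA names, with the number of identifiers in brackets and the median as a black bar. Red points are DEGs higher and blue points DEGs lower in Familiar. SNORD115, H/ACA snoRNAs and U2 lie mostly below 0, 7SK mostly above, and SNORD113 on both sides.

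Of 60 microRNA precursor genes 2 were higher DEGs (3.33% against 1.83% of all genes) and 1 lower (1.67% against 1.89%). Mir320a rose by 1.69 (implied SE 0.28, adjusted p = 9.23e-07) and was a DEG at all 5 settings, with 2.88 before RUVSeq. Mir219-1, precursor of miR-219, whose 5′ arm promotes the maturation of oligodendrocytes, rose by 1.01 (implied SE 0.29, adjusted p = 0.0289), against the direction of the myelin markers. Mir124-1, of the neuronal microRNA miR-124, fell by 0.62 (adjusted p = 0.15), while Mir124-2, which makes the same mature microRNA and was named after its values were seen, had 0.81 (unadjusted p = 0.0872). The table counts reads on the precursor gene, and mature microRNAs were not measured. For Mir219-1, listed in RefSeq as Mir219a1, the mature sequence found under this locus in RefSeq is the other arm, the 3′ arm rno-miR-219a-1-3p, shown with its seed (bases 2 to 8) in capitals, at chr20:4831641-4831662 on the plus strand of GRCr8.
rno-miR-219a-1-3p: aGAGUUGCgucuggacgucccg

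Other families of neuronal and housekeeping genes follow. By the authors' edgeR test none of 29 ionotropic glutamate receptor genes, 18 calcium channel genes, 13 neuropeptides and 26 cholesterol synthesis genes was a DEG. Their smallest unadjusted p values belonged to Gria3 (-0.14, 0.0184), Cacna1f (1.55, 0.0139), Tac3 (-0.43, 0.0813) and Mvk (-0.41, 0.0263). Gabrg1 was the only DEG of 15 GABA-A receptor subunits (6.67% against 1.83% of all genes higher), at 0.43 (adjusted p = 0.0336). Of 85 potassium channel genes Kcnk1, a leak channel, rose by 0.36 and Kcnh2 fell by 0.36 (1.18% in each direction, under the share of all genes). Synaptic vesicle genes held 0 DEGs of 27, yet Rab3a and Syt1, which prepare and trigger release, had -0.30 and -0.14 with adjusted p of 1.05e-05 and 0.0201. The glucocorticoid list, read because handling and novelty raise corticosterone, had 1 higher DEG of 23 (4.35% against 1.83% of all genes). It was Dusp1, which the activity list also holds. Fkbp5 and Sgk1, classic targets named after their values were seen, had 0.21 and -0.27.

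The 13 protein genes of mitochondrial DNA held 0 DEGs by the authors' edgeR test but 12 were below 0, and 2 had adjusted p under 0.05, Mt-cox3 at -0.22 (0.0192) and Mt-nd4 at -0.28 (0.0253). At the other settings 0 of the 13 had such an adjusted p by the authors' edgeR test, and before RUVSeq the unadjusted p were 0.185 for Mt-cox3 and 0.461 for Mt-nd4. Among 112 cytosolic ribosomal protein genes 4 were lower DEGs (3.57% against 1.89% of all genes), Rpl27a (-0.52), Rpl21 (-0.71, for 1 of its 4 identifiers), Rpl23 (-0.35) and Rpl7a (-0.64, for 1 of its 2), families with many processed copies. Mitochondrial ribosomal proteins gave 2 higher DEGs, Mrpl49 (0.88) and Mrps17 (0.57), and 3 lower, of 74 (2.7% and 4.05%). Of 39 histone genes Hist1h1d (0.48), Hist1h2ao (0.42) and H2afy2 (0.42) were higher (7.69% against 1.83%). The splicing factor Sart1, part of the tri-snRNP, rose by 0.42 (adjusted p = 0.000182) and Prpf31 of the same particle fell by 0.44 (adjusted p = 0.0867), the only DEGs of 57 splicing regulators (1.75% in each direction, near the share of all genes). The 281 zinc finger genes named Zfp or Znf had 5 DEGs in each direction (1.78%, near the 1.83% and 1.89% of all genes), of which Zfp710 (0.58) and Zfp612 (-0.35) had the smallest p.

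Few DEGs came from the remaining lists, where the share over all genes was 1.83% higher and 1.89% lower. Sema4c, a semaphorin that signals through plexins, rose by 0.74 (implied SE 0.18) after 2.72 before RUVSeq, and Sema5b fell by 0.54, the 2 DEGs of 29 semaphorins and plexins. Of 79 nuclear genes of the respiratory chain, Ndufb11 rose by 0.34 and Ndufv3 fell by 0.37, both subunits of complex I. Psmb10, a subunit of the immunoproteasome, fell by 0.49 (1 DEG of 50 proteasome genes) and the protocadherin Pcdhb20 by 0.79 (1 of 51). LOC100134871 rose by 0.58, the only DEG of the 7 erythrocyte markers. The 10 choroid plexus and 11 skeletal muscle markers, 31 rat MHC genes, 22 Eph receptors and ephrins and 8 olfactory receptors held 0 DEGs by the authors' edgeR test, and the smallest unadjusted p in these lists were those of Aqp1 (0.0607), Acta1 (0.102), RT1-A1 (0.0307), Ephb3 (0.0164) and Olr125 (0.0868).

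Beyond these lists, the smallest p values among the higher DEGs included Bdkrb1, the inducible bradykinin receptor, at 1.18 (implied SE 0.19), Adamts9, a matrix protease, at 0.81 (implied SE 0.13), and Chst10, which makes the HNK-1 sugar of neural adhesion molecules, at 0.50 (implied SE 0.08). LOC100909700 had 1.40 (implied SE 0.23). All 4 were DEGs at every setting, but Bdkrb1 stood at 2.02, Adamts9 at 1.46 and LOC100909700 at 2.44 before RUVSeq, whereas Chst10 stood at 0.53.

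The largest values among the DEGs found at all 5 settings were those of Btk, a B cell kinase (-2.03), Prelid2 (-1.84), the identifier AABR07043248.1 and 1 SNORD24 identifier (both -1.67) and F12, coagulation factor XII (-1.36), on the lower side. On the higher side stood Gfra3, Mir320a, Hspa1a (1.59), and Prr15 and Adam33 (both 1.57). Before RUVSeq several were larger, with -2.88 for Btk, 2.13 for Prr15 and 2.49 for Adam33, and of the 940 genes of the table with an absolute value of 1 or more there, 738 were under 0.75 of it at k = 4. Their implied SE ran from 0.28 for Mir320a to 0.66 for Btk, above the upper quartile of all genes (0.39) for Prelid2, SNORD24, AABR07043248.1, F12, Btk, Prr15 and Adam33. Of these 7, Prelid2, SNORD24 and AABR07043248.1 had adjusted p under 0.05, at 0.00332 for Prelid2 and 0.0208 for both others.

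As a check, the ratio of Familiar to Control should follow from the tables of the other group pairs. For the 650 DEGs that all 3 tables hold, the gap had a median of 0.01 on the log2 scale before RUVSeq and 0.05 at k = 4, with 95% of the gaps up to 0.08 and 0.21.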

How the data were processed

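Gene expression was measured by RNA sequencing of the caudal perirhinal cortex, one library per rat. Per the submitters' processing notes and the study's methods, reads were mapped to Rnor_6.0 with TopHat and Bowtie2 and uniquely mapped reads were counted with HTSeq. The deposited fold change is a linear ratio of group Familiar (5 rats) over group Control (4 rats) that the authors computed with edgeR, after upper quartile normalization and after RUVSeq with k from 1 to 4. The deposited p-value beside each is the authors' unadjusted edgeR result. The study names a general linear model with k = 4; tool versions, the edgeR test and the RUVSeq variant are not given in the sources used here. The table holds 0 columns per rat, so the depth of each library and the spread between rats cannot be read from it and no model was refitted.

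Fold changes were turned into log2 values and p-values were adjusted over all 17521 genes by Benjamini-Hochberg. The implied SE is the absolute log2 fold change divided by the two-sided normal quantile of its p. The main setting was k = 4. Medians and counts of 53 gene lists were set beside those of all genes. The members and lists were chosen with earlier results of these data known. Genes were named as the 10 DEGs of smallest p in each direction (1 identifier per name) and the 5 in each direction of largest change among DEGs at all settings. Added to these were up to 6 DEGs of each list (or 2 members of smallest p) and 10 genes the study discusses, 159 identifiers in all. Others are marked in the text. Alternatives were the other settings, an adjusted p under 0.05, a fold change of at most 0.75 for a decrease, and 1 value per snoRNA name. Medians of SNORD115, 7SK, U1 and U2 at other settings were added after seeing the data. Names with near-identical copies (snoRNAs, 7SK, U1, U2, Hspa1a and Hspa1b) are uncertain, and 206 names carry more than 1 identifier. Promoters (11048 genes matched by Ensembl identifier or else by symbol, 10958 of full length searched) and microRNAs (54 of 60 precursors matched) came from RefSeq on GRCr8. Scripts ran in Python 3.11.15 (pandas 2.3.3, scipy 1.17.1, numpy 2.4.6; figures with matplotlib 3.10.9) and were tested on simulated data. The tables of the other group pairs served only for the check of ratios. Results of some genes are not reported here.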

Additional observations from a re-analysis of the deposited data

How the results depend on the processing

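Counts of DEGs depended on the setting, while 0 of the 652 DEGs had the opposite direction at any other setting. Medians close to 0 at k = 4 could change sign, as for choroid plexus markers with 0.29 at upper quartile normalization and -0.05 at k = 4. Higher DEGs numbered 321 at k = 4, 95 at upper quartile normalization, 123 at k = 1 and 155 at an adjusted p under 0.05 (Benjamini-Hochberg on edgeR p), and lower DEGs 331, 79, 157 and 191. At upper quartile normalization and k = 1, activity-regulated transcription factors had 3 and 5 DEGs instead of 9, C/D box snoRNAs 27 and 33 instead of 62, H/ACA box snoRNAs 7 and 17 instead of 30, and collagens 1 and 2 instead of 9. Collagens had 2 at k = 2 and 3 at an adjusted p under 0.05, and oligodendrocyte and myelin markers 4 instead of 7 at upper quartile normalization. The cause was not tested. Of 159 named identifiers, 66 lost their call at upper quartile normalization, 49 at k = 1, 33 at k = 2 and 14 at k = 3, and none changed direction in these 4 settings.

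No paired analysis was possible because the table holds group comparisons without a value per rat, and leaving out each rat in turn was not run for the same reason. The depth of each library is not in the table, so calls could not be set against it.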

Other observations

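Mitochondrial transfer and ribosomal RNA genes, which the lists leave out, held 4 lower and 0 higher DEGs of 21 at k = 4, the only setting counted, where 1.89% of all genes were lower DEGs. Their median log2 fold change was -0.15, and 14 were below 0. The median of the 13 protein genes of the same genome was -0.12 at k = 4 and between -0.05 and -0.07 at the other 4 settings.

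Many genes carried the same pair of values as another gene. At k = 4, 6613 genes (37.7%) shared both fold change and p with at least 1 other gene to 5 significant digits, against 333 (1.9%) at upper quartile normalization, 2355 at k = 1, 3884 at k = 2 and 5475 at k = 3. The largest such group at k = 4 held 51 genes, and the median implied SE of the sharing genes was 0.50. Among the DEGs 22 (3.37%) shared their values, for example Prr15 and Adam33, both at 1.57, and 1 SNORD24 identifier and AABR07043248.1, both at -1.67. The cause was not tested.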
